A study of Oryza sativa with 6 samples.

Results

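The miR156 family was followed across the whole series through its 47 names, of 641 in the deposited table, recognised by the family number directly after "mir". These comprise 11 names of the 3p arm, 12 of the 5p arm and 24 with no arm given. Small RNA came from seeds of the rice cultivar Kasalath during germination, at an age of 5 days after germination per the labels. The 3 "normal" libraries were from seeds at 25 °C in the laboratory, under a cardboard box, and the 3 "hot" libraries from seeds at a constant 35 °C in an incubator, so temperature and place of growth cannot be told apart. Per the labels' protocols, 40 seeds were set out on damp tissue with no medium, 5 to a dish and 4 dishes at each temperature, and kept damp until day 8. The sources used here do not say how seeds were pooled into libraries. The series' design text calls the libraries biological triplicates, and the table holds no mRNA against which the tissue label could be checked.

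MicroRNAs of the miR156 family guide the cleavage and translational repression of transcripts of SPL transcription factors (SQUAMOSA promoter binding protein-like), which promote the change from juvenile to adult growth and, in rice, shape tillers and panicles. The family is abundant in young plants and declines with age. Each precursor hairpin is cut into a duplex of a 5p strand, the usual guide, and a 3p strand, the usual passenger. The 5p strands from different hairpins are nearly or fully identical, so their reads cannot be assigned to 1 hairpin, whereas the 3p strands differ more from hairpin to hairpin. The names in the table carry no species prefix, so a letter such as the "a" of mir156a is not tied to a rice locus here.

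Summed raw counts ranged from 136294 (normal 2) to 377473 (hot 3). The total that the deposited normalised values were divided by ranged from 157488 (hot 1) to 275549 (normal 3). The column sum can pass the total because 1 read can be entered under more than 1 name. The column sum was 0.545 to 0.737 of the total at 25 °C and 1.08 to 1.55 of it at 35 °C, so the choice of scale between the 2 temperatures alters every level given relative to it. Levels are therefore given both as CPM (counts per 1000000 of the column sum after TMM composition scaling) and as RPM, used here for reads per 1000000 of the deposited library total.

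The miR156 5p strand guides SPL repression. Its main set of reads made up a larger part of the library total in every hot library than in every normal one. The means differed 2.28-fold, but under TMM over all names the step was small and not past the threshold. It also missed the threshold with column sums and with RLE size factors. With TMM factors from names outside miR156, that set (mir156k-5p) rose by 0.49 on the log2 scale (adjusted p = 0.00216 in edgeR). The median over all tested names was 0.32 there. With the library total as the scale, the median log2 fold change was 0.99 over all tested names, repeated rows and members included, and 1.19 over the members. With near-repeats of a row entered once, chosen after the data were seen, the median over all rows was 0.66 on this scale. The row mir156k-5p had 1.19 there. Among the rarer 3p strands, mir156b-3p accounted for 34.4% to 44.5% of 3p reads at 35 °C against 7.46% to 9.72% at 25 °C. Its own level did not pass the threshold under TMM (adjusted p = 0.0573 in edgeR). The row entered that test through the hot libraries alone. Its ratio to mir156a overlapped between groups with 1 count added to each side. Relative to mir156k-5p with none added, it did not, by a narrow margin. The 3p rows of the letters d, f, h, i and l, 5 of 10 patterns, had lower ratios to mir156a in every hot library than in every normal one, as did 29.8% of all other names with a count. The rows of h and l were nearly alike and may share reads, and that of i had at most 3 counts in any library. In whole seeds, fewer cells of a type and less RNA per cell cannot be told apart.

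Nearly all counts of the family were repeated entries of 1 set of reads, the set listed once under mir156k-5p. That row had 694, 633 and 935 counts at 25 °C (normal libraries 1 to 3) and 799, 1612 and 1877 at 35 °C (hot libraries 1 to 3). Of the 36 names of the 5p arm or with no arm, 14 (mir156k-5p included) were exact whole multiples of it in all 6 libraries, from 1 to 5 times. The rows mir156l, mir156m, mir156q, mir156s, mir156x and mir156y were copies of it. Another 4 names, mir156f, mir156u, mir156v and mir156w, exceeded a whole multiple by exactly the counts of mir156t, a row of 0, 2 and 0 counts at 25 °C and 1, 3 and 3 at 35 °C. A further 10 exceeded a whole multiple by less than 5% of mir156k-5p. Over all 36 names, whole multiples of mir156k-5p made up between 98.34% and 98.44% of all counts under miR156 names in each library. This includes the multiples within 7 names with larger remainders, mir156a among them, and takes those rows to hold the same reads.

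The order of abundance within the 5p and unlabelled names therefore followed how often those reads were entered. The most abundant name, mir156a, had 13904, 12679 and 18750 counts at 25 °C and 16013, 32320 and 37628 at 35 °C, between 20.03 and 20.05 times mir156k-5p. Next in the hot libraries came mir156c at 15 times, mir156b and mir156d at a little over 14 times, mir156e at 9 times, the name without a letter, mir156, at 8 times and mir156f at 6 times. Levels of different names of the family are thus not levels of different molecules.

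**Figure D1:**
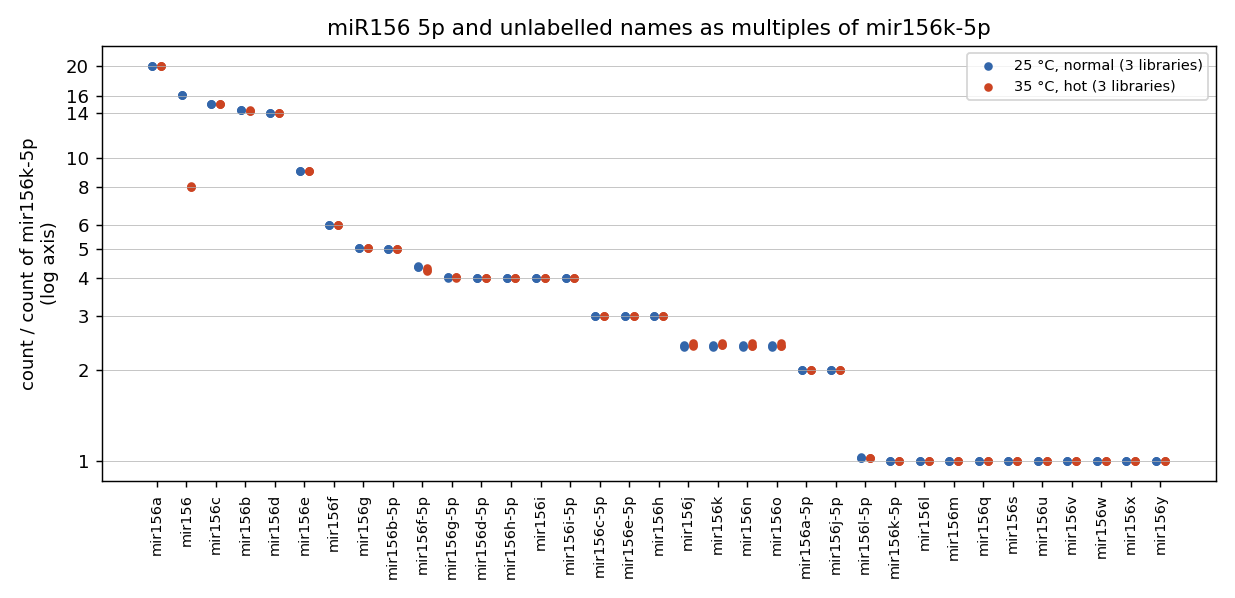
Count of each miR156 name of the 5p arm or with no arm, divided by the count of mir156k-5p in the same library (log axis), for the 3 normal (blue) and 3 hot (red) libraries; mir156t is left out. Most names sit on or just above whole numbers from 1 to 20 in both groups, mir156b, mir156f-5p, mir156j, mir156k, mir156n and mir156o lie between whole numbers, and mir156 is the 1 name whose multiple differs between groups, 16 at 25 °C and 8 at 35 °C.

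The reads under mir156k-5p made up a larger share of the deposited library total at 35 °C. They amounted to 2628, 2529 and 3393 RPM at 25 °C and 5073, 6705 and 7697 at 35 °C. All 3 hot libraries lay above all 3 normal libraries, and the group means, 2850 ± 472.9 and 6492 ± 1325 (SD, n = 3 each), differed 2.28-fold. The fitted log2 fold change of mir156k-5p on this scale was 1.19, where the median over all tested names, repeated rows and members included, was 0.99. On the TMM scale the same row had 4845, 4418 and 4019 CPM at 25 °C and 5072, 5150 and 5102 at 35 °C. The groups did not overlap there either, but the step was small, 0.21 on the log2 scale (SE 0.09, adjusted p = 0.106 by the quasi-likelihood test of edgeR with Benjamini-Hochberg adjustment over 253 tested names).

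For mir156a, the row with the most counts, the values were 97059, 88493 and 80588 CPM at 25 °C and 101655, 103253 and 102271 CPM at 35 °C. The hot libraries lay close together and above the normal ones, whose spread was wider. Its log2 fold change was 0.21 (SE 0.08, adjusted p = 0.0873).

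Of the 47 names 40 passed the filter on low counts, 35 of the 5p arm or with no arm and 5 of the 3p arm. Under TMM scaling none of the 40 was called higher by edgeR at adjusted p 0.05 and 1 was called lower (mir156), against a background of 22.9% of all tested names called, 7.11% higher and 15.8% lower. At an unadjusted p under 0.05 there were 24 of the 40 (47.4% of all tested names, in either direction). The DESeq2 Wald test called 35 higher (25.3% of all tested names) and limma-voom 0 (share over all names not counted). Apart from mir156, the 34 tested 5p and unlabelled names had log2 fold changes between 0.17 and 0.22. In CPM, 35 members had no overlap between groups with the hot libraries higher, where 30.4% of all tested names did, these members among them. Both sets of 35 include mir156b-3p, which passed the filter through the hot libraries alone.

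With the deposited library totals as the scale, the same 34 names rose, by 1.15 to 1.20 on the log2 scale (adjusted p from 0.00304 to 0.00319). On this scale 32.8% of all tested names were called higher and 0.395% lower, and the median log2 fold change was 0.99 over all tested names and 1.19 over the members, against 0.0059 and 0.21 under TMM. When TMM factors were taken from the names outside miR156, the 34 names rose by 0.46 to 0.51, with 27.7% of all tested names called higher and a median over all of them of 0.32.

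The count of calls under TMM also moved with single libraries. Without hot library 1, 34 members were called higher and 2 lower, where 23.2% of all tested names were called higher and 20.3% lower. The 2 lower were mir156 and mir156g-3p, and mir156g-3p passed the filter there through the normal libraries alone. Leaving out hot library 2 gave 5 members higher (7.84% of all tested names), and leaving out hot library 3 gave 23 (15.2%). Leaving out normal library 1, 2 or 3 gave 0 each time, where 5.36%, 4.92% and 7.14% of all tested names were called higher. With all 6 libraries and no filter on low counts, 21 of the 47 were called higher against 7.96% of all 641 names. With 1 row per distinct count pattern it was 19 members against 18.7% of 166 rows.

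Because the repeats enter a test as if they were separate measurements, the table was also fitted with rows that lie within 0.1 of a whole multiple of a smaller row entered once, an alternative chosen after the data were seen. In that fit, with 132 rows tested, 12.1% of them called higher and 7.58% lower, the family kept 9 rows, of which 5 were called higher and 1, mir156, lower (-0.48). The median log2 fold change over all 132 rows was 0.02. The row mir156k-5p rose by 0.51 (SE 0.08, adjusted p = 0.00592), mir156n by 0.52, mir156b by 0.50 and mir156f-5p by 0.48, all under TMM in edgeR. The last 3 of these rows still contain the reads of mir156k-5p, so the 4 rows are not independent. The other row called higher was mir156b-3p, which passed the filter through the hot libraries alone, so its call there carries no weight. With near-multiples joined and the deposited library totals as the scale, the median over all rows was 0.66 and mir156k-5p had 1.19.

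**Figure D2:**
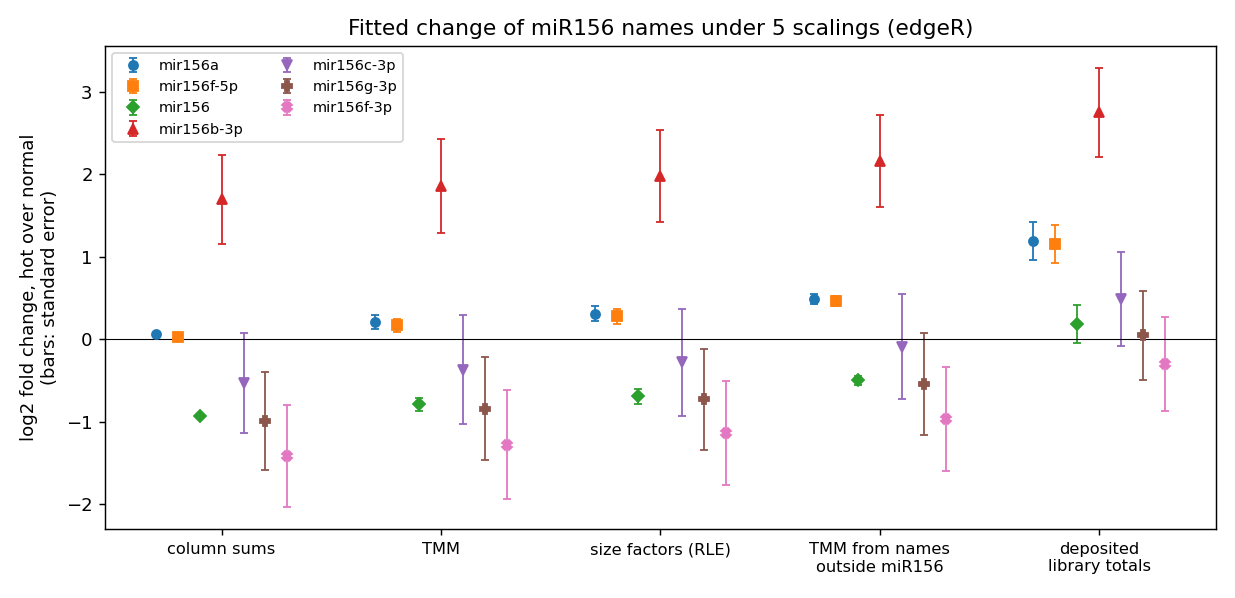
Fitted log2 fold change, hot over normal, with its standard error, for 7 miR156 names under 5 ways of scaling the 6 libraries in edgeR. The 5p value of mir156a moves from 0.06 with column sums to 1.19 with the deposited library totals, mir156 turns from below to above 0, and mir156b-3p stays the highest of the 7 throughout.

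The name mir156 behaved unlike the others. It had 11116, 10134 and 14996 counts at 25 °C and 6413, 12936 and 15075 at 35 °C. That is 16 times mir156k-5p plus 12, 6 and 36 counts in the normal libraries, and 8 times plus 21, 40 and 59 counts in the hot ones. In all 6 libraries the excess over the multiple was below 5% of mir156k-5p. Its log2 fold change of -0.79 under TMM (SE 0.08, adjusted p = 0.00276 in edgeR) was 1 log2 unit under that of mir156a, the same step as from 16 to 8 entries. With the deposited library totals it had 0.19 (adjusted p = 0.485).

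Some names held reads beyond the multiples, and these remainders did not all move alike between temperatures. The remainder was taken, after the data were seen, as the count left over the greatest whole multiple of mir156k-5p that all 3 libraries of a group contain. It is given here as a description without a test.

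Names mir156b and mir156f-5p shared a remainder of nearly the same size. For mir156b, above 14 times mir156k-5p, it was 257, 246 and 331 counts at 25 °C and 253, 415 and 471 at 35 °C. For mir156f-5p, above 4 times, it was 259, 243 and 327 counts at 25 °C and 256, 406 and 467 at 35 °C. Relative to mir156k-5p in the same library, a ratio that needs no scaling between libraries, the remainder of mir156b was 37.0%, 38.9% and 35.4% at 25 °C and 31.7%, 25.7% and 25.1% at 35 °C. The hot libraries all lay below the normal ones, at 27.5% ± 3.62 against 37.1% ± 1.73 (SD, n = 3 each). For mir156f-5p the same means were 27.4% ± 4.05 and 36.9% ± 1.75. Relative to the library total these reads were still higher in the hot libraries, at 1755 ± 164.4 against 1052 ± 129 RPM, a ratio of 1.67 where mir156k-5p had 2.28.

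The unlabelled names mir156j, mir156k, mir156n and mir156o shared another remainder, above 2 times mir156k-5p. For mir156n and mir156o, whose rows are identical, it was 282, 240 and 392 counts at 25 °C and 324, 655 and 840 at 35 °C. As a share of mir156k-5p it came to 40.6%, 37.9% and 41.9% at 25 °C and 40.5%, 40.6% and 44.7% at 35 °C. Here the groups overlapped, and the means of 40.2% ± 2.05 and 42.0% ± 2.40 lay within about 1 SD of each other. In hot library 3 the deposited raw counts of these 4 names exceed the counts implied by their deposited normalised values by 10 (4594 against 4584 for mir156n), and no other entry of the table differs by more than 1 count.

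Smaller remainders belonged to mir156l-5p, with 19, 18 and 34 counts at 25 °C and 19, 47 and 49 at 35 °C, and to mir156g-5p, with 22, 18 and 38 against 23, 52 and 56. As shares of mir156k-5p these were 3.07% ± 0.491 and 2.64% ± 0.270 for mir156l-5p, and 3.36% ± 0.632 and 3.03% ± 0.178 for mir156g-5p. Both differences were within the spread between libraries.

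**Figure D3:**
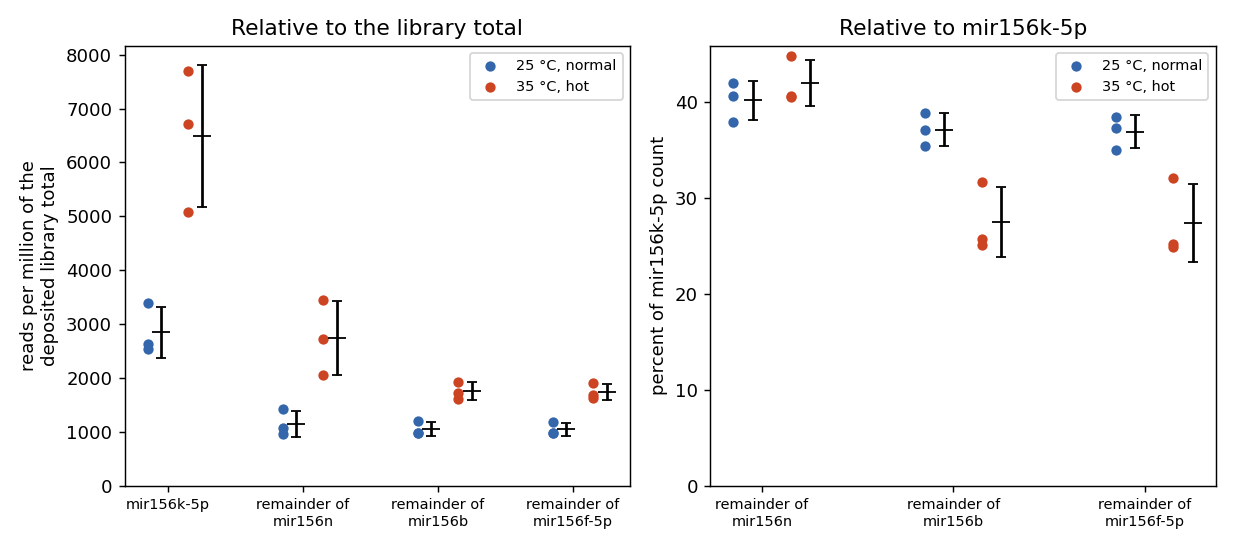
Left, reads per 1000000 of the deposited library total (RPM) for mir156k-5p and for the remainders of mir156n, mir156b and mir156f-5p; right, the remainders as a percentage of the mir156k-5p count in the same library. Points are libraries (blue normal, red hot), with mean and SD (n = 3) beside them. On the left every hot library lies above every normal one, while on the right the remainders of mir156b and mir156f-5p are lower in the hot libraries and that of mir156n overlaps.

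The 3p names had few reads, at most 49 in a library, and their counts differed from name to name. The 11 names held 10 distinct count patterns, since mir156c-3p and mir156e-3p are identical rows. Apart from these, no 3p row was an exact whole multiple of another. The rows mir156h-3p and mir156l-3p were nearly alike, however, and whether they share reads cannot be told here. Because 3p strands differ between hairpins, these rows were read one by one.

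The name mir156b-3p had 5, 7 and 7 counts at 25 °C and 32, 49 and 22 at 35 °C. In raw counts every hot library held at least 3 times as many as every normal library. The levels were 18.9, 28.0 and 25.4 against 203, 204 and 90.2 RPM, and the ratio of summed counts relative to the library totals was 6.67 with an exact binomial 95% interval of 4.06 to 11.5, for counting error only. In CPM the groups were 37.9 ± 9.75 and 140 ± 73.1 (SD, n = 3 each). The row entered the filtered test through the hot libraries alone, since none of the normal libraries reached the filter's level of 53.6 CPM, so the fitted values are given as a description. The log2 fold change under TMM was 1.86 (SE 0.57, adjusted p = 0.0573 in edgeR), short of the threshold. Of the 16 alternatives that tested the row, 8 were past the threshold and 8 were not. Without a filter it had 2.02 (adjusted p = 0.0456), with the deposited library totals 2.75 (adjusted p = 0.00304) and without hot library 3 2.29 (adjusted p = 0.0268). It missed the threshold in limma-voom at 1.51 (adjusted p = 0.169), with column sums at 1.70 (adjusted p = 0.0634), with RLE size factors in edgeR at 1.98 (adjusted p = 0.0551), without hot library 1 at 1.51 (adjusted p = 0.0748), and without any 1 normal library (adjusted p from 0.108 to 0.132). Without hot library 2 the row did not pass the filter.

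Other 3p rows pointed the other way. The name mir156d-3p had 7, 20 and 8 counts at 25 °C and 5, 5 and 4 at 35 °C, and mir156l-3p had 6, 8 and 5 against 3, 3 and 1. Counts of mir156f-3p were 12, 18 and 11 against 7, 15 and 5, and those of mir156h-3p were 6, 9 and 5 against 4, 5 and 1. In raw counts mir156d-3p and mir156l-3p had no overlap between groups, and the other 2 did. Ratios of summed counts relative to the library totals were 0.492 for mir156d-3p (exact binomial 95% interval 0.245 to 0.939) and 0.454 for mir156l-3p (0.161 to 1.13). For mir156f-3p the ratio was 0.811 (0.480 to 1.35) and for mir156h-3p 0.615 (0.257 to 1.38). At this depth a change was not detectable by counting for the last 3. The interval of mir156d-3p leans on the 20 counts of normal library 2. All of these intervals cover counting error only, and libraries of a group differed by more than that.

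The rows mir156g-3p, with 15, 15 and 17 against 16, 13 and 8 counts, and mir156c-3p, with 9, 7 and 12 against 13, 10 and 7, overlapped between groups. For mir156a-3p the counts were 3, 1 and 5 against 11, 9 and 5, which overlap at 5. Its ratio of summed counts relative to the library totals was 3.42 (exact binomial 95% interval 1.54 to 8.32, counting error only), and its ratio to mir156a overlapped between groups, with a difference of 0.45 on the log2 scale (exact permutation p = 0.6). The remaining names, mir156i-3p and mir156j-3p, had at most 3 counts in any library.

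Only 5 of the 11 3p names passed the filter. Their log2 fold changes under TMM, besides that of mir156b-3p, were -0.37 for mir156c-3p and mir156e-3p (adjusted p = 0.713), -0.84 for mir156g-3p (adjusted p = 0.331) and -1.28 for mir156f-3p (adjusted p = 0.155), none past the threshold in edgeR. The row mir156f-3p entered the test through the normal libraries alone. With the deposited library totals mir156c-3p had 0.49 and mir156g-3p 0.05, so their direction depended on the scale, while mir156f-3p stayed negative at -0.30. Without hot library 1, mir156g-3p passed the threshold at -1.55 (adjusted p = 0.0438 in edgeR). There the row passed the filter through the normal libraries alone, so this call carries no weight.

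Set against mir156a in the same library, which removes the scaling between libraries, 8 of the 10 patterns had a lower mean log2 ratio in the hot libraries and 2, mir156a-3p and mir156b-3p, a higher one. The groups did not overlap, with the hot libraries lower, for 5 patterns: mir156d-3p, mir156f-3p, mir156h-3p, mir156i-3p and mir156l-3p. The nearly alike rows mir156h-3p and mir156l-3p may not be separate reads, and mir156i-3p had at most 3 counts in any library. Of all 640 other names with a count, 29.8% were lower without overlap in this way, and 3.75% higher. The differences of the means were -1.88 for mir156d-3p, -1.50 for mir156f-3p, -1.79 for mir156h-3p, -1.52 for mir156i-3p and -2.04 for mir156l-3p on the log2 scale with 1 count added. Each had p = 0.1 in an exact two-sided permutation test, the smallest value that 3 against 3 libraries can give. For mir156b-3p the difference was 1.36 (exact permutation p = 0.2), with hot library 3 at -10.68 beside normal library 2 at -10.63. That overlap rests on the added count. Per 1000 counts of mir156k-5p with none added, hot library 3 had 11.7 and normal library 2 had 11.1, and the groups did not overlap.

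The make-up of the 3p reads thus differed between the temperatures. Over the 10 patterns, taken as separate reads, 67, 89 and 72 were counted at 25 °C and 93, 110 and 55 at 35 °C. The share of mir156b-3p among them was 7.46%, 7.87% and 9.72% at 25 °C and 34.4%, 44.5% and 40.0% at 35 °C. The exact binomial (Clopper-Pearson) 95% intervals reached at most 19.0% in a normal library and began no lower than 24.9% in a hot library. This share does not depend on a scale between libraries, and the intervals cover counting error only.

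**Figure D4:**
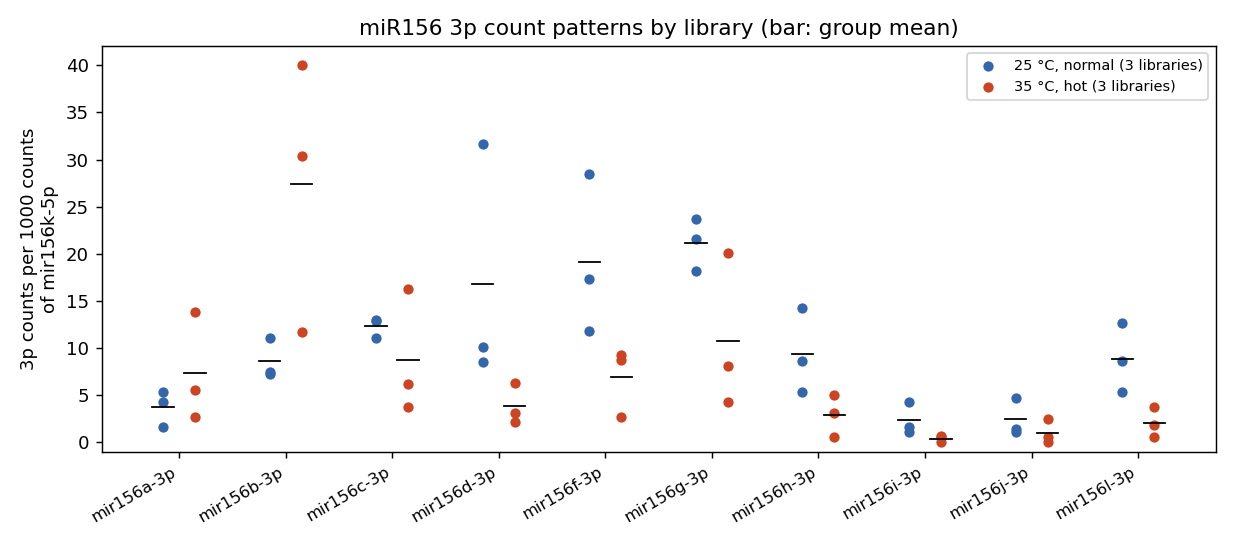
Counts of each of the 10 distinct miR156 3p patterns per 1000 counts of mir156k-5p in the same library, for 3 normal (blue) and 3 hot (red) libraries, with the group mean as a bar; mir156c-3p stands also for the identical mir156e-3p. The row mir156b-3p lies between 7.21 and 11.1 at 25 °C and between 11.7 and 40.0 at 35 °C, whereas mir156d-3p, mir156f-3p, mir156h-3p, mir156i-3p and mir156l-3p lie lower in every hot than in every normal library.

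The 2 arms together were dominated by the 5p strand at both temperatures. Counts of mir156k-5p alone, without the remainders of other names, were 10.4, 7.11 and 13.0 per 3p read at 25 °C and 8.59, 14.6 and 34.1 at 35 °C. These are ratios of 1 set of reads, not of the whole 5p arm. The groups overlapped, and hot library 3 stood apart with the fewest 3p reads. Over all names as entered, the log2 ratio of 3p to 5p and unlabelled counts was -10.52, -10.05 and -10.80 at 25 °C and -10.17, -11.01 and -12.17 at 35 °C. The means differed by -0.66, and by -0.13 without hot library 3. Without mir156b-3p, 3p reads per 1000 of mir156k-5p were 89.3, 130 and 69.5 at 25 °C and 76.4, 37.8 and 17.6 at 35 °C.

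As entered, miR156 names filled most of the table. They held 76.3%, 75.5% and 74.9% of the column sum at 25 °C and 72.8%, 75.4% and 76.8% at 35 °C. Each had an exact binomial 95% interval narrower than 1 percentage point. These intervals treat repeated entries as separate reads, so they understate the counting error. The groups overlapped on this measure. The reads of mir156k-5p, entered once, were 0.263%, 0.253% and 0.339% of the library total at 25 °C and 0.507%, 0.670% and 0.770% at 35 °C. Counts outside the family also amounted to more of that total in the hot libraries, 0.293 to 0.359 of it against 0.133 to 0.185.

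Of the other miRNAs in the same pathway, miR529 and miR535 also target SPL transcripts, and miR172 acts after the SPL factors in phase change. Of 7 miR529 names 2 were tested, of 7 miR535 names 4 and of 25 miR172 names none, and no tested name was called in either direction by edgeR under TMM (0 also at an unadjusted p under 0.05), by edgeR with the deposited library totals, or by limma-voom or DESeq2. The most abundant miR529 name, mir529-3p, had 72, 56 and 106 counts at 25 °C and 60, 144 and 194 at 35 °C (log2 fold change 0.02, SE 0.21). In mir535a, 25, 33 and 37 counts stood against 9, 70 and 98, a fitted change of -0.02 on the log2 scale (SE 0.54). The most abundant miR172 name, mir172a, had 0, 0 and 13 against 0, 34 and 14 counts.

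Outside the family, the tested names whose log2 CPM followed that of mir156a most closely over the 6 libraries, at most 1 per family, were mir159f, mir166l-3p and mir529-3p. Their root mean square difference from mir156a, after centring each name on its own mean, was 0.15, 0.19 and 0.19 log2 units. Counts of mir159f were 16, 21 and 24 at 25 °C and 21, 40 and 50 at 35 °C, and those of mir166l-3p were 47, 41 and 50 against 42, 77 and 90. Neither was called under TMM (adjusted p = 0.776 and 0.751 in edgeR).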

How the data were processed

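Small RNA reads of 3 normal and 3 hot libraries were deposited as 1 table of raw counts and normalised values per miRNA name, per the file headers. No source used here names the matching tool, database release or genome build. The deposited normalised value is the count over 1 total per library, and that total was recovered as the median over rows above 20 counts. Counts were fitted with edgeR 4.0.16 in R 4.3.3 (filterByExpr with minimum count 10, TMM, quasi-likelihood F test of hot against normal without covariates, all names in 1 fit, Benjamini-Hochberg, threshold 0.05). The standard error is the log2 fold change over the square root of F. DESeq2 1.42.0 and limma-voom 3.58.1 were alternatives. Ratios within a library had 1 count added to each side. Exact permutation tests enumerated 20 splits. Intervals and the depth in reads cover counting error only, since no molecular identifiers are stated. On counts simulated for this comparison, with a mean of 258.7 names tested, edgeR recovered 32.4% of names changed by 1 log2 unit and 93.7% of those changed by 2. The simulated rows were drawn independently with 1 common dispersion, so these rates do not carry over to the repeated miR156 rows. Libraries of a group differed by more than counting error (chi-square per degree of freedom 5.33 to 20.8), so none was a copy.

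The members, lists and named items were chosen with earlier results of these data known. Named with values were the most abundant count patterns, the 3p patterns, the names called or turning sign with the scaling, the 3 most similar names of other families and the most abundant name of miR529, miR535 and miR172. The remainders and joined near-multiples were chosen after seeing the data. Joining applied to sets whose smallest row summed to at least 60 counts.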

Additional observations from a re-analysis of the deposited data

How the results depend on the processing

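The number of miR156 names called higher was 0 under TMM in edgeR (7.11% of all tested names). It was 35 with the deposited library totals (32.8%), 35 with TMM factors from names outside miR156 (27.7%) and 35 in the DESeq2 test (25.3%). Each 35 comprised 34 names that contain the reads of mir156k-5p, and mir156b-3p, which passed the filter through the hot libraries alone. There were 21 without a filter (7.96% of all names) and 19 with 1 row per distinct pattern (18.7% of rows). With near-multiples joined it was 5, under TMM (12.1% of rows) or with the totals. With the totals the share over all rows was not counted, and the median log2 fold change over all rows was 0.66. The number higher stayed 0 with size factors, column sums, limma-voom and the replicate block. The share over all names was not counted for these, so the 0 cannot be set against a background. Leaving out 1 library gave 0 to 34 higher and 1 to 2 lower, where 4.92% to 23.2% of all tested names were called higher. The 2 lower came without hot library 1, where 20.3% of all tested names were called lower. They were mir156 and mir156g-3p, and mir156g-3p passed the filter there through the normal libraries alone. The number lower, 1, was 0 with the totals, near-multiples joined or not. The value of mir156 turned to 0.19 with the totals (also with near-multiples joined), that of mir156c-3p to 0.49 (0.48 joined) and to 0.10 without hot library 3 (-1.09 without hot library 1), and that of mir156g-3p to 0.05 (0.04 joined). The cause was not tested. For mir156b-3p the 16 alternatives that tested it gave positive values, 8 of them past the threshold. The row passed the filter through the hot libraries alone, so this tally carries no weight. The 3p to 5p difference of -0.66 ranged from -1.13 to -0.13 over left-out libraries. The difference in share of the column sum, -0.537 percentage points, ranged from -1.45 to 0.581, and was 53.9 with the library total as denominator.

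Same-numbered libraries of the 2 groups deviated together with correlations of 0.50, -0.32 and 0.03 over tested names, so the numbers were not taken as pairs. With the replicate block 0 members were called higher and 1 lower, mir156a had 0.21 and mir156b-3p 1.71 (adjusted p = 0.0756). Of the 3 normal libraries only number 1 correlated best with its own number. Depth limits the 3p names most: 6 of 11 were not tested.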
